A study of Ceratina calcarata with 12 samples.

Results

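The 6 gene models of the small carpenter bee Ceratina calcarata described here are those that the study lists under the Gene Ontology term chitin catabolic process, out of 20693 gene models counted. The term's list holds only genes that the study had called as differentially expressed between offspring raised with and without a mother, by a test on the same 6 RNA libraries. The genes were therefore chosen by their difference between the groups. These differences, and the calls that any test makes on them, are given below as a description, and they support nothing about the term. Genes that carry the term and were not called by the study are not in its list and were not analysed here. All 6 listed genes passed the filter on low counts.

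RNA was sequenced from heads of newly eclosed adult females. In care, the mother remained in the nest while the brood developed, and in no care she was removed after she had provisioned the eggs with pollen. Both groups came from field nests in sumac stems that were reared in the laboratory, and the labels name no other treatment. Each group had 3 libraries, and each library pooled 3 heads from different nests, so the error given is that between pools and not between single bees. A whole head holds brain, eyes, muscle, fat body, glands and epidermis, and fewer cells of a type and less RNA per cell cannot be told apart in such pools.

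Chitin is a polymer of N-acetylglucosamine that forms the fibres of the insect cuticle and of the lining of the midgut. Chitinases cut the polymer inside the chain, and beta-N-acetylhexosaminidases release single sugars from the short fragments that remain. In insects these enzymes are best known for digesting the old cuticle at each moult, and some chitinase-like proteins act in the ordering of new cuticle. All 6 genes are also listed under chitinase activity, and all 6 are shown under the broader term chitin metabolic process. Ccalc.v2_005430, Ccalc.v2_011357, Ccalc.v2_011843 and Ccalc.v2_015153 are listed under chitin binding as well, whereas Ccalc.v2_001100 and Ccalc.v2_010023 are not. The tables used here give none of the 6 genes a name, a length or a position, so each is called by its identifier. Levels were not compared between genes, since a count also depends on the length of the gene.

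Values are CPM, the counts of a gene per 1000000 counts of its library, scaled between libraries by the trimmed mean of M-values (TMM). The libraries held 26752341 to 31894020 counts on gene models. The summed counts of the 6 genes were 12521 to 15316 in the care libraries and 24939 to 31890 in the no care libraries. The smallest count of any of the 6 genes in any library was 351, where the counting error is 5.34% of the value, and it was 1.10% at the largest count of 8285. Tissue markers were taken from gene models matched to Drosophila genes in the study's annotation. The copy of it used here is shortened before the 6 genes, so markers further along were not seen. Those used may not represent their tissues. None of the 4 eye, 4 neuron, 2 muscle and 1 fat body markers had a count of 0 in any library. Their presence alone cannot verify that the tissue was heads.

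All 6 chitin catabolic genes were higher in no care, as were 50.5% of all genes tested, and in each of them the lowest no care library lay above the highest care library. Such a separation toward no care was found in 18.4% of the 10763 genes tested. It is a property for which the 6 genes were in effect chosen. The median log2 fold change of the 6 genes was 1.21, against 0.00 for all genes tested, and 5 of the 6 exceeded 1. Of all genes tested, 4.29% exceeded 1. The genes differed widely in size of difference, from 1.29 to 5.97 times the care mean, and in how closely the pools of one group matched.

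**Figure D1:**
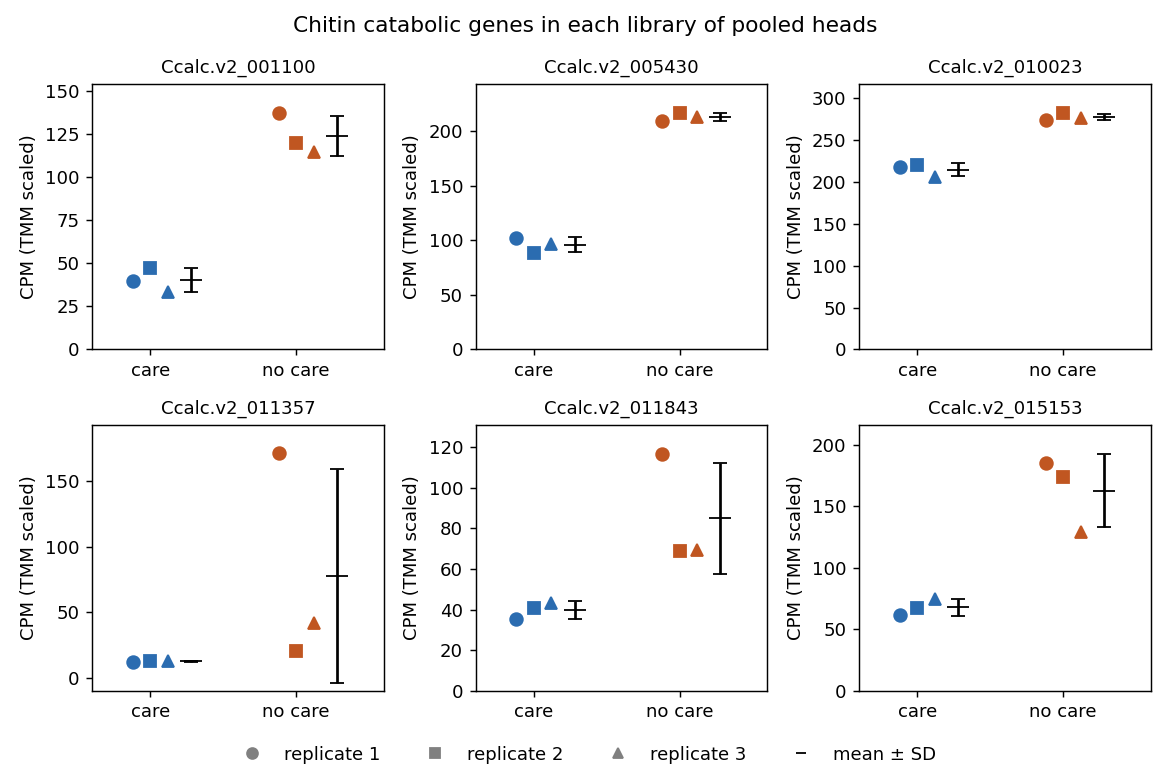
Level of each chitin catabolic gene in CPM (vertical axis, linear, a separate scale for each panel) in the 3 care and 3 no care libraries, with a symbol for each replicate and the mean ± SD beside the points. All no care points lie above all care points in each of the 6 panels. In Ccalc.v2_011357 a single library, no care replicate 1 at 171 CPM, stands far above the other 5.

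The gene without a chitin binding listing that differed most was Ccalc.v2_001100. Its level was 39.9, 47.4 and 33.5 CPM in care replicates 1, 2 and 3, and 137, 120 and 115 CPM in no care replicates 1, 2 and 3. The no care libraries were close to each other, and the lowest of them was 2.42 times the highest care library. The group means were 40.2 ± 6.96 CPM in care and 124 ± 11.8 CPM in no care (SD, n = 3 pools), a ratio of 3.08. The fitted log2 fold change was 1.62 with a standard error of 0.14. It ran from 1.51 to 1.76 with each library left out in turn, so no single pool carried the difference.

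Ccalc.v2_010023, the other gene not listed under chitin binding, showed the smallest difference of the 6. It stood at 217, 220 and 206 CPM in care and at 274, 282 and 276 CPM in no care, in the order of replicates. The pools of each group lay almost on top of each other. Its coefficient of variation was 3.53% in care and 1.46% in no care, against a counting error of 1.10% to 1.32%. Its spread within groups on the log2 scale, 0.04, was above that of only 2.08% of the 8481 genes whose mean log2 CPM was 1 or more. The means were 214.5 ± 7.57 CPM in care and 278 ± 4.05 CPM in no care (SD, n = 3 pools). Its log2 fold change was 0.37 (standard error 0.07). The groups thus stood apart by a small step, with the lowest no care library at 1.24 times the highest care library.

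Among the genes also listed under chitin binding, Ccalc.v2_005430 was the steadiest. Its level was 102, 88.4 and 96.7 CPM in care replicates 1, 2 and 3 and 210, 216 and 213 CPM in no care replicates 1, 2 and 3. The no care pools differed from each other by a factor of 1.03, close to counting error. The means were 95.8 ± 7.05 CPM and 213 ± 3.36 CPM (SD, n = 3 pools each), a ratio of 2.22. The log2 fold change was 1.15 (standard error 0.08) and ran from 1.10 to 1.20 with each library left out.

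Ccalc.v2_015153 had 61.3, 67.4 and 74.4 CPM in care and 185, 174 and 129 CPM in no care, by replicate. No care replicate 3 was the lowest of its group and was still 1.73 times the highest care library. Means were 67.7 ± 6.60 CPM in care and 163 ± 29.5 CPM in no care (SD, n = 3 pools), and the log2 fold change was 1.26 (standard error 0.14).

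Ccalc.v2_011843 had 35.1, 41.0 and 43.4 CPM in care and 117, 68.8 and 69.6 CPM in no care, by replicate. In no care, replicate 1 was clearly higher, while replicates 2 and 3 were nearly the same. Means were 39.8 ± 4.27 CPM in care and 85.0 ± 27.3 CPM in no care (SD, n = 3 pools). The log2 fold change was 1.09 (standard error 0.21), and without no care replicate 1 it was 0.80.

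Ccalc.v2_011357 had the largest difference and the least even one. Care replicates 1, 2 and 3 stood at 12.7, 13.4 and 13.1 CPM, whereas no care replicates 1, 2 and 3 stood at 171, 20.6 and 42.1 CPM. The care pools were nearly equal, with a coefficient of variation of 2.76%, below the counting error of 5.34% at its smallest count. The no care pools spread over a factor of 8.32. Its means were 13.1 ± 0.360 CPM in care and 77.9 ± 81.3 CPM in no care (SD, n = 3 pools), so the no care mean is smaller than its own SD. The log2 fold change was 2.58 (standard error 0.69). It was 1.27 without no care replicate 1, the library that set most of its size, and 3.03 without no care replicate 2. The lowest no care library was 1.53 times the highest care library.

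**Figure D2:**
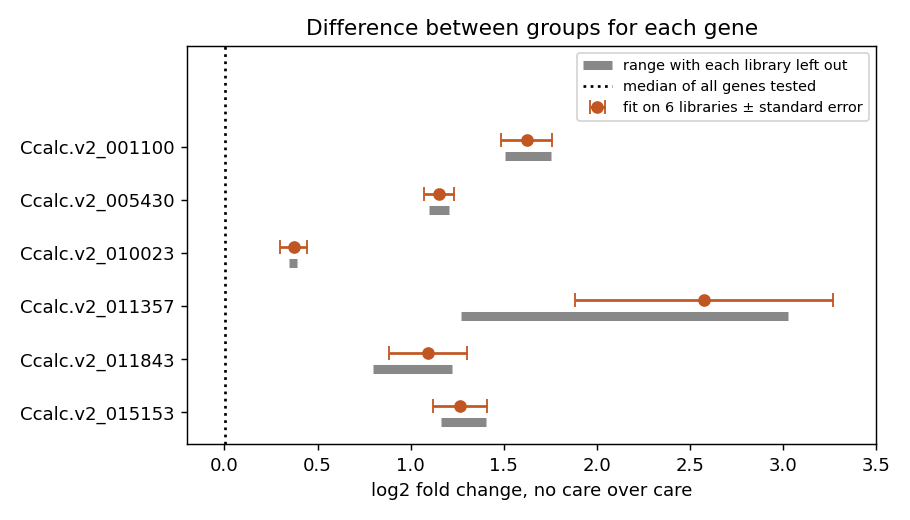
Fitted log2 fold change of each gene, no care over care (points with the standard error), with the range of the fit when each of the 6 libraries was left out in turn (grey bars). The dotted line is the median of all 10763 genes tested, 0.00. The bar of Ccalc.v2_011357 runs from 1.27 to 3.03, the widest of the 6.

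The threshold that placed these genes on the study's list was an adjusted p of 0.01 in edgeR's exact test. When that test was run on the deposited counts, all 6 genes were past it, and Ccalc.v2_010023 lay nearest to it with an adjusted p of 0.00779 (edgeR exact test, Benjamini-Hochberg). In all, 7.25% of the genes tested were past it toward no care. Under edgeR's quasi-likelihood test at the same threshold, 3 of the 6 were called higher in no care, Ccalc.v2_001100, Ccalc.v2_005430 and Ccalc.v2_015153. The share of all genes tested that this test called higher in no care was 3.72%, or 7.01% in either direction, and nothing is read from the comparison, since the same contrast chose the genes. These 3 stayed past the threshold with any one library left out. Ccalc.v2_011843 was added without no care replicate 1 and Ccalc.v2_010023 without no care replicate 3, which gave 4 genes in each case. Ccalc.v2_011357, with the largest fold change, was not called in any of these fits.

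The spread among pools of the same group also entered the test that chose the genes, so it too is given as a description. No care replicate 1 was the highest of its group in 4 of the 6 genes, and no care replicate 3 in none. In care, replicate 2 was the highest in 3 genes, replicate 3 in 2 and replicate 1 in 1. Within no care, Ccalc.v2_011357 departed from its group mean by 1.69 on the log2 scale in replicate 1 and by -1.36 in replicate 2. In replicate 1, Ccalc.v2_011843 departed by 0.50 and Ccalc.v2_015153 by 0.20. The level of Ccalc.v2_011357 in no care replicate 1 was 5.45 times the mean of replicates 2 and 3, a ratio matched or exceeded by only 3 other genes of the 8481. For Ccalc.v2_011843 the same ratio was 1.68, above 98.6% of these genes. For Ccalc.v2_005430 and Ccalc.v2_010023 it was 0.98, near the middle of all genes. The excess in this library was therefore not common to the 6 genes. Of the 21 other genes shown under chitin binding, 9 were highest of their group in no care replicate 1.

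The 3 genes with a larger ratio were named after their values were seen. Ccalc.v2_011524 had 215 CPM in no care replicate 1, against 3.57 and 15.1 CPM in replicates 2 and 3 and 1.10 to 1.49 CPM in care. Ccalc.v2_004343 had 72.2 CPM there, against 7.96 and 12.1 CPM in the other no care libraries, and 0.684, 9.88 and 1.71 CPM in care replicates 1, 2 and 3. Ccalc.v2_000412 stood at 11.8, 1.12 and 2.91 CPM in the no care replicates and at 0.652, 6.18 and 1.04 CPM in care. In both genes, care replicate 2 lay above at least 1 no care library. None of these 3 genes is in a list used here.

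**Figure D3:**
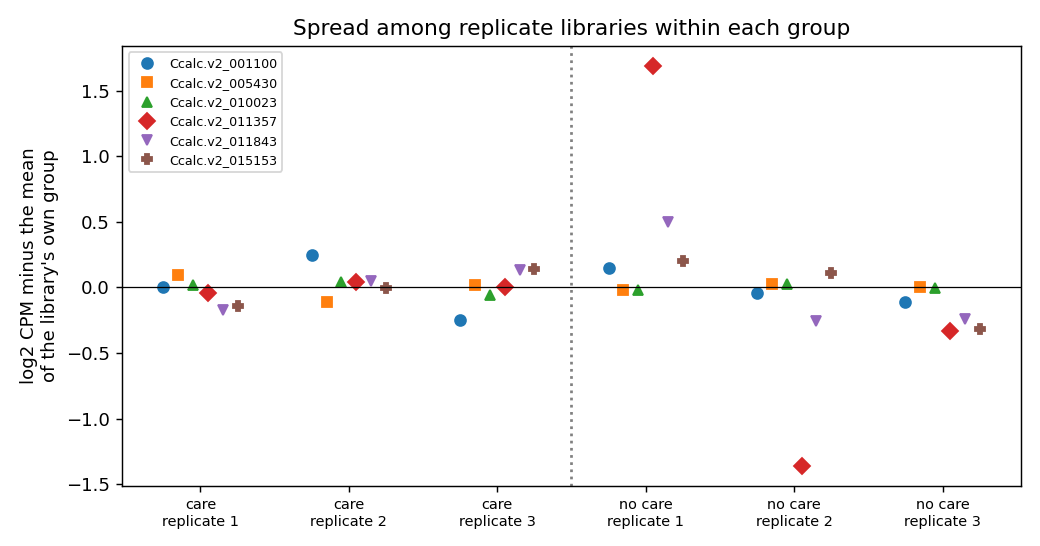
Departure of each chitin catabolic gene from the mean of the library's own group, on the log2 CPM scale (vertical axis), for the 3 care and 3 no care libraries. Ccalc.v2_011357 departs by 1.69 in no care replicate 1 and -1.36 in no care replicate 2, while the widest departure in a care library is that of Ccalc.v2_001100, -0.25 in care replicate 3.

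Likeness between profiles was measured as the root mean square difference of log2 CPM over the 6 libraries after each gene was centred on its own mean, where 0 is an identical profile. Among the 6 genes, Ccalc.v2_005430 and Ccalc.v2_015153 were the most alike, with a difference of 0.21, and Ccalc.v2_011843 and Ccalc.v2_015153 followed with 0.22. The least alike were Ccalc.v2_010023 and Ccalc.v2_011357, with 1.22, the genes with the smallest and the largest group difference.

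Over the 8480 other genes at or above the same mean level, the profile nearest to Ccalc.v2_015153 was that of Ccalc.v2_001075, at 0.08. Ccalc.v2_001075 is itself shown under chitin binding, and stood at 11.7, 11.2 and 13.7 CPM in care and 33.3, 29.0 and 24.2 CPM in no care. The nearest profiles to the other genes were Ccalc.v2_009427 for Ccalc.v2_001100 at 0.07, Ccalc.v2_000951 for Ccalc.v2_005430 at 0.09, and Ccalc.v2_014721 for Ccalc.v2_011843 at 0.12. Ccalc.v2_010023 was nearest to Ccalc.v2_003118 at 0.03, and 4017 genes lay within 0.25 of it. Its step between groups is so small that genes with no difference can lie within this limit. The count therefore does not show that these genes share the step. Ccalc.v2_011357 had no gene within 0.25. Its nearest, Ccalc.v2_005514, lay at 0.46 and had 7.16, 1.46 and 4.51 CPM in the no care libraries and 0.749 to 1.30 CPM in care.

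The list for beta-N-acetylhexosaminidase activity was compared next. None of its genes is shown under chitin metabolic process, so whether they act on chitin is not known here. This list and those below also hold only genes the study called on these libraries, so their counts describe and do not test a direction. Of its 3 genes, 2 were lower in no care, both called by edgeR's quasi-likelihood test, and 1 was higher and not called. Ccalc.v2_001465 stood at 51.6, 49.1 and 48.9 CPM in care and 27.4, 31.3 and 29.8 CPM in no care, a log2 difference of -0.76 (standard error 0.09). Ccalc.v2_006924 stood at 62.2, 64.9 and 84.7 CPM in care and 36.0, 40.5 and 42.6 CPM in no care, a log2 difference of -0.83 (standard error 0.13). The groups did not overlap in either gene, a property for which the listed genes were in effect chosen. The share of all genes tested that separated toward care is not given here, so nothing is read from it. Of all genes tested, the quasi-likelihood test called 7.01% in either direction. In both Ccalc.v2_001465 and Ccalc.v2_006924, the direction was opposite to that of the 6 chitin catabolic genes. Ccalc.v2_007744 had a log2 difference of 0.55 (standard error 0.12), from 15.2 ± 1.20 CPM in care to 22.3 ± 2.47 CPM in no care (SD, n = 3 pools). With each library left out, the log2 difference of Ccalc.v2_001465 ran from -0.80 to -0.70 and that of Ccalc.v2_006924 from -0.91 to -0.68. The fold changes thus held while the calls did not, and the call of Ccalc.v2_001465 was lost without care replicate 1 or care replicate 3. Ccalc.v2_006924 was called in 1 of the 6 fits that left out a library, that without no care replicate 3. With either of these care libraries removed, both calls were lost.

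The 6 genes listed for glycosaminoglycan catabolic process, the breakdown of other polymers with amino sugars, include these 3. Of the other 3, Ccalc.v2_011578 and Ccalc.v2_017290 were called higher in no care, at 1.52 (standard error 0.17) and 1.61 (standard error 0.16) on the log2 scale. Both remained called with any one library left out. Ccalc.v2_006274 was called lower, at -0.40 (standard error 0.07), and this call was lost in 5 of the 6 fits that left out a library. Of the 6 genes, 2 were thus called higher and 3 lower. Removing care replicate 1 or care replicate 3 lost each of the 3 lower calls. Removing care replicate 2, or replicate 1 or 2 of no care, left 1 of them.

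Proteins that bind chitin without being listed as chitinases were taken from the list for chitin binding, which is shortened in the copy used and shows 25 genes, 4 of them among the 6 described here. Of the other 21, 19 lay higher in no care and the remaining 2 lay lower. The quasi-likelihood test called 16 higher in no care and 1 lower. Their median log2 fold change was 1.07, close to the 1.21 of the chitin catabolic genes, and 12 of the 21 exceeded 1. The largest difference toward no care was that of Ccalc.v2_018580, at 0.0652, 0.763 and 0.152 CPM in care and 5.62, 3.64 and 4.44 CPM in no care, a log2 difference of 3.86 (standard error 0.63). Its care level rests on 2, 20 and 5 counts. The largest toward care was that of Ccalc.v2_002024, at 11.9, 4.58 and 6.19 CPM in care and 0.994, 1.16 and 0.576 CPM in no care, a log2 difference of -3.05 (standard error 0.43). Both were called on the 6 libraries, and the call of Ccalc.v2_018580 held in 1 and that of Ccalc.v2_002024 in 3 of the 6 fits that left out a library. With one library removed the 16 became 8 to 15, and the fewest were left when care replicate 3 was removed.

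The remaining lists that hold some of the 6 genes are shortened in the same way, and the counts here leave the 6 out. Of 19 others shown under chitin metabolic process, 14 were called higher in no care and 1 lower, with a median log2 fold change of 1.04. The largest of them was Ccalc.v2_015698 at 1.81 (standard error 0.21). Of 21 shown under amino sugar metabolic process, 12 were called higher and 5 lower (median 0.79), and the largest was Ccalc.v2_003876 at 1.76 (standard error 0.23). The lowest gene of these lists and of that for extracellular region was again Ccalc.v2_002024. Of 24 shown under extracellular region, 14 were called higher and 5 lower (median 0.71), and the largest was Ccalc.v2_001615 at 2.49 (standard error 0.42). Of 21 tested under the wider term carbohydrate metabolic process, 10 lay higher in no care and 11 lower. The test called 5 higher and 9 lower (median -0.43). The 3 genes left out here were all higher and the list is shortened, so no direction of the term is read. These 21 ran from Ccalc.v2_005074 at -1.93 (standard error 0.09) to Ccalc.v2_003649 at 2.36 (standard error 0.52), which was not called. Without care replicate 3, the calls higher in no care in these lists became 7, 6, 6 and 0, in the order given, and the lower calls became 0, 0, 2 and 3. Without care replicate 1 they were 11, 9, 8 and 1 higher and 1, 1, 2 and 3 lower. With care replicate 2 removed they were 11, 10, 9 and 5 higher and 1, 3, 3 and 6 lower. With no care replicate 1 removed they were 12, 11, 10 and 3 higher and 0, 1, 3 and 5 lower, and with no care replicate 2 removed 11, 10, 9 and 2 higher and 0, 1, 1 and 4 lower.

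Structural proteins of the cuticle, which bind to chitin fibres in the finished exoskeleton, were higher in no care in 16 of the 17 genes listed as structural constituent of cuticle. Their summed level was 8009 to 22761 CPM in care and 67452 to 74455 CPM in no care. Care replicate 2 had the highest sum of its group, and it was also the highest care library for 3 of the 6 chitin catabolic genes. In no care the highest sum was in replicate 3, which was the highest for none of the 6. The median log2 fold change of the list was 1.56, and 8 genes were called higher in no care by the quasi-likelihood test. In that test 2 genes were called higher with care replicate 3 removed, 4 with care replicate 1 removed, and 5 with replicate 1 or replicate 2 of no care removed. On all 6 libraries the exact test called 16 higher and 1 lower. That test on the same libraries had placed the 17 genes on the study's list, so these calls add no support. The extremes of this list were Ccalc.v2_005769 at 3.02 (standard error 0.65) and Ccalc.v2_006875 at -4.50 (standard error 0.96) on the log2 scale. Neither was called by the quasi-likelihood test on the 6 libraries, and the exact test called both.

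**Figure D4:**
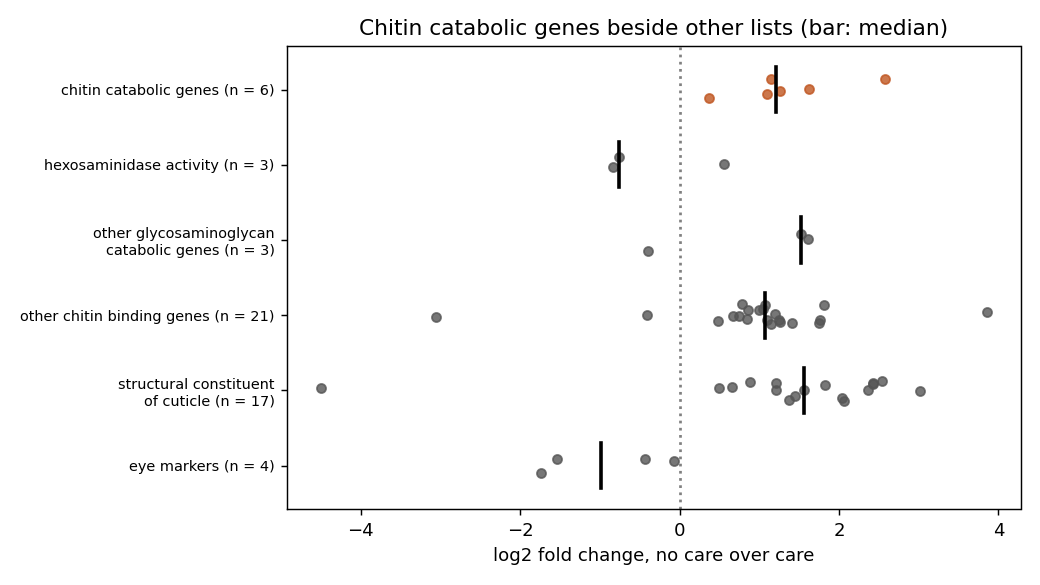
Log2 fold change, no care over care, of the 6 chitin catabolic genes (orange) and of the genes in other lists (grey), with the median of each list as a bar. The medians are 1.21 for the chitin catabolic genes, -0.76 for the hexosaminidases, 1.07 for the other chitin binding genes and 1.56 for the structural cuticle genes.

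Markers of head tissues were summed beside the chitin catabolic genes. The summed level of the 4 eye markers (the opsins Rh2, Rh3 and Rh6 and the arrestin Arr1, by their Drosophila matches) was 3526 to 4554 CPM in care and 1659 to 2178 CPM in no care. All 4 had a log2 fold change below 0, and the quasi-likelihood test called 2 of them lower in no care. These were Rh6 at -1.74 (standard error 0.23) and Arr1 at -1.54 (standard error 0.12) on the log2 scale. That test called 7.01% of all genes tested in either direction. Rh3 was at -0.44 (standard error 0.10) and was not called, though its groups did not overlap. Rh2 was at -0.06 (standard error 0.11), with overlapping groups. The call of Rh6 was lost without care replicate 1, care replicate 3 or no care replicate 2, and that of Arr1 held in all 6 such fits. The 4 neuron markers summed to 4522 to 4544 CPM in care and 4988 to 6018 CPM in no care, with 2 higher and 2 lower. The sum rose mainly through cpx, with means of 2758 CPM in care and 4077 CPM in no care. Vmat was also higher, at 15.8 and 21.5 CPM. Lower in no care were nAChRalpha4, at 1667 and 1311 CPM, and Liprin-alpha, at 90.1 and 72.4 CPM. In all 4 neuron markers the groups did not overlap, 2 toward no care and 2 toward care. Separation toward no care was found in 18.4% of all genes tested. The quasi-likelihood test called 0 of the 4, although 3 had an unadjusted p below 0.05, a share not counted over all genes. The exact test called 1 higher and DESeq2 2, against 780 and 901 of the 10763 genes tested. The 2 muscle markers overlapped between the groups, at 6380 to 7482 CPM in care and 4955 to 6997 CPM in no care. The fat body marker Tsf1 was at 126 to 172 CPM in care and 91.1 to 130 CPM in no care. The part of these differences in the levels of the chitin catabolic genes was not tested.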

How the data were processed

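RNA was sequenced from 3 care and 3 no care libraries of pooled female heads, grouped by the sample labels. The authors trimmed reads with Trimmomatic 0.32, aligned them with TopHat and counted them on gene models with featureCounts. The deposited values are raw counts, without normalization. The treatment of reads that match more than one gene model is not given in the sources used here, so counts of near-identical genes are uncertain. A gene was tested where more than 3 libraries exceeded 0.18 CPM. The groups were compared in R 4.3.3 with edgeR 4.0.16, by its quasi-likelihood test with TMM scaling, Benjamini-Hochberg adjustment over all genes and a threshold of 0.01. Log2 fold changes use a prior count of 0.125, and the standard error is the fold change over the root of the F statistic. The alternatives tried were the exact test of edgeR, DESeq2 1.42.0, other scalings and filters, a threshold of 0.05, a replicate block and each library left out. Scripts were tested on simulated data.

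The members and lists were chosen with earlier results of these data known. All 6 chitin catabolic genes and all 3 hexosaminidase genes are named, with the largest rise and fall of other lists and the nearest profile of each gene. For glycosaminoglycan catabolic process all 6 genes were named, which departs from this rule. The lists for amino sugar metabolic process, carbohydrate metabolic process and extracellular region were used as far as the copy shows them, like those for chitin binding and chitin metabolic process. Library pairs differed by a chi-square per degree of freedom of 39.6 to 84.1 within groups, more than sampling noise. The identifiers matched no entry of the RefSeq gene table, so no sequence, position or methylation of these genes was analysed here, and the bisulfite files were not used.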

Additional observations from a re-analysis of the deposited data

How the results depend on the processing

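All 6 genes stayed higher in no care under every alternative run, and their median log2 fold change ran from 1.17 to 1.31 when each library was left out. Of the single fold changes, only that of Ccalc.v2_011357 without no care replicate 1, 1.27, moved by more than its spread between pools. The count of called genes among the 6 was 3 in the quasi-likelihood test, 6 in the exact test, 5 in DESeq2 and 6 at an adjusted p of 0.05, and 3 to 4 with each library left out. Over all genes the count was 755, against 1420 in the exact test, 1625 in DESeq2 and 1818 at 0.05, and 172 to 1109 with each library left out. It changed by more than 1.5 times without care replicate 1 (275), care replicate 3 (172), no care replicate 1 (350) or no care replicate 2 (327). The cause was not tested.

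With the replicate number as a block, 371 genes were called, and 3 of the 6, the same 3 genes. The labels do not say whether the numbers pair the samples. Deviations of same-numbered libraries correlated by -0.04, -0.07 and 0.15 across genes. Over all pairs of a care and a no care library the range was -0.10 to 0.17, so the correlations do not settle it. The 2 other scalings of edgeR and library size alone called 3 of the 6 each, and the 3 other filters called 3 or 4. Counting error was 1.10% to 5.34% of a value, so the 3 pools per group limit the precision more than depth does in the genes whose pools differ.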
